A study of Mus musculus with 4 samples.

Results

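The genes described here are 10 regulators of lymphoid development, namely Ikzf1, Ikzf3, Tcf3, Tcf4, Id2, Bcl11a, Gata3, Tcf7, Notch1 and Satb1. They were picked by gene symbol from the expression values of 4 libraries, over which 12417 genes with a row were kept. A row was found for 9 of the 10 members in at least 1 library and for 6 in all 4 libraries. Ikzf3 had no row in any library and is not among the 12417. Rows were matched by name and not by any measured value, but the members were chosen with earlier results of these data known.

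Mice lacking GRK6, a kinase that phosphorylates agonist-bound G protein-coupled receptors, were compared with wild-type (WT) mice in 2 sorted bone marrow populations. The hematopoietic stem cells (HSC) were Lin-c-kit+sca-1+ and the common lymphoid progenitors (CLP) were gated as Lin-c-kit+sca-1+Il-7Ra+, all from C57BL/6 mice. By the study's methods the mice were littermates aged 8 to 12 weeks, and the knockout (GRK6-/-) removes exons 3 to 9 of Grk6 in all cells. RNA-seq was done on 1 library per population and genotype, each a pool of amplified cDNA from 13 to 15 sorted cells out of 3 to 4 mice, so no group had a replicate. Expression was given as FPKM, the fragments of a gene scaled by transcript length and by the mapped fragments of the library. Comparing FPKM between genes assumes that poly(dT)-primed, amplified cDNA covers transcripts of different length alike, which was not tested. Differences are given as the log2 ratio of FPKM + 1, and an absolute log2 ratio of at least 1 (a 2-fold change) is the threshold used throughout. It is a threshold on size and not a test, because 1 library per group leaves no spread to test against.

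The targeted gene went against the labels. Grk6 had 42.7 FPKM in the library labelled WT HSC and 89.4 in that labelled GRK6-/- HSC, and 26.9 FPKM in the library labelled WT CLP and 57.6 in that labelled GRK6-/- CLP, so that it was higher under the knockout label in both populations. Its single value per library also counts the exons that the deletion keeps, so it checks the genotype of neither library, and group names below are those of the labels. The labelled sort was checked against its surface markers. Kit was present in all 4 libraries, at 26.2 to 81.8 FPKM. Il7r had no row in the library labelled WT HSC and 1.08 FPKM in GRK6-/- HSC, against 120.1 in WT CLP and 75.1 in GRK6-/- CLP. Ly6a, which encodes Sca-1, was only listed jointly with another gene and is not given. The stem cell markers Mecom, Hlf, Procr, Slamf1 and Meis1 summed to 62.9 FPKM (labelled WT) and 44.7 (labelled GRK6-/-) among HSC, against 59.2 (labelled WT) and 116.6 (labelled GRK6-/-) among CLP. The HSC libraries were thus not set above the CLP libraries by these markers, which goes against the labels, while Slamf1 was higher in WT HSC at 8.91 FPKM against 0.136 to 0.689 in the others. Granulocyte genes were high in every library, with Elane between 3516 and 7008 FPKM. The values were scaled to an estimated 2770000 to 4290000 fragments per library. The study's methods state a larger number of sequenced reads for each lineage, and why the estimate is lower was not tested. Fragment counts given below all scale with this estimate.

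Lymphoid cells arise from stem cells through progenitors in which a network of transcription factors is turned on in steps. Ikaros, encoded by Ikzf1, prepares lymphoid genes in early progenitors, and the E proteins encoded by Tcf3 and Tcf4 bind short DNA sites called E-boxes to drive B cell, T cell and plasmacytoid dendritic cell programs. Id2 encodes a helix-loop-helix protein without a DNA-binding region that pairs with E proteins and keeps them off DNA, and it is needed for natural killer and innate lymphoid cells. Notch1 is the receptor whose signal starts the T cell program, in which Tcf7 and Gata3 act as early targets and partners. Bcl11a and Satb1 encode chromatin-associated factors used by early lymphoid cells, and Ikzf3 encodes Aiolos, an Ikaros relative of later lymphocytes.

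Markers of other cell types, chiefly of the B lineage, plasmacytoid dendritic cells and erythroid cells, set the library labelled GRK6-/- CLP apart. Id2 and Tcf7 were also highest there. B lineage markers, of which Ms4a1 and Pax5 had no row, summed to 35.5 to 41.9 FPKM in the HSC libraries, to 115.3 in WT CLP and to 968.1 in GRK6-/- CLP, and 6 of 8 were above 0 in each CLP library. Markers of plasmacytoid dendritic cells, the cell type that Tcf4 directs, summed to 10.2 FPKM (labelled WT) and 55.8 (labelled GRK6-/-) among HSC, against 189.6 (labelled WT) and 980.0 (labelled GRK6-/-) among CLP, with 8 of 8 above 0 in the last. Erythroid markers summed to 43.6, 772.5, 20.0 and 17549 FPKM in the same order, with 7 of 10 above 0 in GRK6-/- CLP. Most of the last sum was Hba-a2, which shares reads with its near-identical copy Hba-a1 and is uncertain for that reason. Megakaryocyte markers summed to 149.6 FPKM (labelled WT) and 13.1 (labelled GRK6-/-) among HSC, where Gata3 was also higher under the WT label, and to 13.5 (labelled WT) and 117.3 (labelled GRK6-/-) among CLP. Natural killer and innate lymphoid markers matter for Id2. Of the 8 listed, 1 was above 0 in GRK6-/- CLP (Klrd1, 36.5 FPKM) and 0 in WT CLP. The HSC libraries held 2 (labelled WT) and 1 (labelled GRK6-/-) of the 8. Il2rb was limited to HSC, with 4.31 FPKM under the WT label and 8.74 under the knockout label, and Zbtb16 to WT HSC (0.333 FPKM). Ncr1, Gzma, Prf1 and Eomes had no row anywhere, and Klrb1c was listed only jointly. T cell markers, which matter for Tcf7 and Notch1, summed to 30.6 to 39.3 FPKM, with 3 of 8 above 0 in each CLP library, and Cd3e and Cd3d had no row in either. Its members moved apart, with Cd4 at 9.63 FPKM in GRK6-/- CLP and no row elsewhere, and Cd3g at 12.1 and 7.93 FPKM in the HSC libraries against 0.257 and 0.403 in CLP. Granulocyte and monocyte markers summed to 7632 to 17750 FPKM. The B lineage and plasmacytoid dendritic cell lists share genes such as Ebf1, Irf8 and Spib with the lists of regulators and downstream genes given further on. The part of these cells in the values of the members was not tested.

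Across the libraries the members held different ranks. Bcl11a was the highest member by FPKM in the libraries labelled WT HSC, GRK6-/- HSC and WT CLP, and Id2 was the highest in the library labelled GRK6-/- CLP. Tcf7 was the lowest member with a row in both HSC libraries. In both CLP libraries Ikzf1 and Tcf4 stood above their levels in both HSC libraries, which held for 2 of the 9 members with a row and for 14.2% of all 12417 genes. Tcf3, Gata3 and Notch1 stood below both HSC libraries in both CLP libraries, 3 of 9 against 17.6% of all genes. The populations overlapped for Id2, Bcl11a, Tcf7 and Satb1. In bulk RNA such as these pools, fewer cells of a type and less RNA per cell cannot be told apart.

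**Figure D1:**
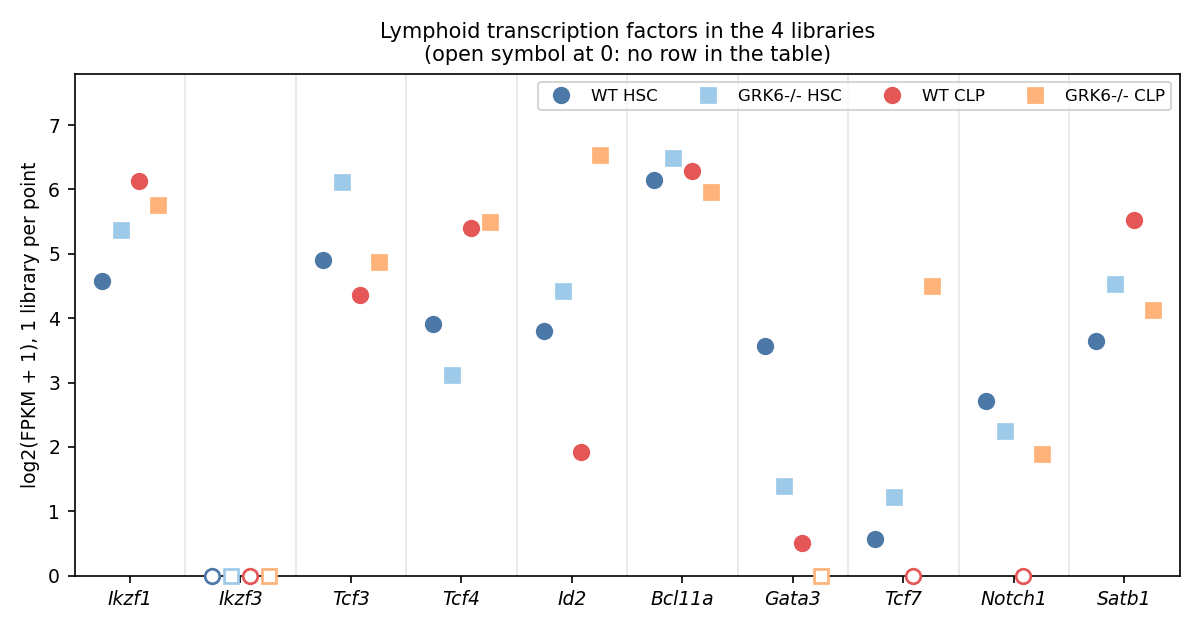
Expression of the 10 members as log2(FPKM + 1) on the vertical axis, with 1 point per library (circles WT, squares GRK6-/-, blue HSC, red and orange CLP) and open symbols at 0 where a library had no row for the gene. Ikzf1 and Tcf4 were higher in both CLP libraries than in either HSC library, while Id2 ran from 2.77 FPKM in WT CLP to 92.2 in GRK6-/- CLP.

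Ikzf1 was higher in CLP than in HSC, and more so between the libraries labelled WT. Ikzf1 (Entrez 22778, mm9 chr11:11586216-11672929, plus strand) had 22.8 FPKM (labelled WT) and 40.2 (labelled GRK6-/-) among HSC, against 69.0 (labelled WT) and 52.9 (labelled GRK6-/-) among CLP. Both CLP values lay above both HSC values, and the order of the genotypes was opposite in the 2 populations. The WT CLP library was 3.03-fold above the WT HSC library, a log2 ratio of 1.56, whereas the log2 ratio between the knockout libraries was 0.39. Between genotypes the log2 ratios were 0.79 in HSC and -0.38 in CLP, neither past the 2-fold change. These values rested on an estimated 331 to 1527 fragments per library. Its locus carries the antisense transcripts Gm11999 and Gm12000 and whether the counting used strand is not stated, so their reads cannot be told apart from those of Ikzf1.

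Ikzf3, at mm9 chr11:98326216-98407345 on the minus strand, had no row in any of the 4 libraries. No row under another symbol covered its locus either. With the estimated depths, 1 fragment on its longest coding transcript of 3658 bp would have read 0.0637 to 0.0987 FPKM.

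Ikaros works largely through the NuRD chromatin remodelling complex, so the Ikaros relatives and NuRD subunits were read beside it. The list also held the corepressor genes Ctbp1 and Sin3a, of which Sin3a was among those lower in GRK6-/- HSC. Of its 17 genes 16 had a row, and most of them stayed within the 2-fold change. In GRK6-/- against WT, 1 was higher and 3 were lower in HSC (median log2 ratio -0.00067), and 4 were higher and 1 lower in CLP (median -0.099). In CLP against HSC, 1 was higher and 2 were lower in WT (median -0.11), and 2 were higher and 0 lower in GRK6-/- (median 0.070). Over all genes tested, the medians of the 4 comparisons lay between -0.079 and 0.051, 18.0% to 26.6% of genes passed the 2-fold change in a given direction, and 37.4% to 49.98% passed it in one or the other. Mta3, a NuRD subunit, had 10.2 FPKM (labelled WT) and 26.2 (labelled GRK6-/-) among HSC, against 72.2 (labelled WT) and 27.7 (labelled GRK6-/-) among CLP, so that WT CLP was highest for it as it was for Ikzf1 and Satb1. Gatad2b, a further NuRD subunit, had its highest value in GRK6-/- CLP, at 41.6 FPKM against 3.01 to 13.3 in the others. Ikzf5, encoding Pegasus, also had its highest value there, 14.0 FPKM against 2.21 to 4.997.

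Among the E protein genes, Tcf3 was lower and Tcf4 higher in CLP than in HSC under both genotype labels. Tcf3 (Entrez 21423, mm9 chr10:79871910-79896398, minus strand) had 28.8 FPKM (labelled WT) and 68.2 (labelled GRK6-/-) among HSC, against 19.5 (labelled WT) and 28.3 (labelled GRK6-/-) among CLP. The GRK6-/- HSC library stood above the other 3, which lay between 19.5 and 28.8. Its log2 ratio of GRK6-/- against WT was 1.22 in HSC, the 1 member higher past the 2-fold change there, beside 19.3% of all genes tested, and 0.52 in CLP. Between populations it was -0.54 in WT and -1.24 in GRK6-/-.

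Tcf4 (Entrez 21413, mm9 chr18:69504144-69847621, plus strand) had 14.1 FPKM (labelled WT) and 7.71 (labelled GRK6-/-) among HSC, against 41.2 (labelled WT) and 44.0 (labelled GRK6-/-) among CLP. Its rows had 3 distinct intervals over the libraries, and the one given is that of WT HSC. Ikzf1 and Bcl11a had 2 distinct intervals each, and whether this affected the FPKM was not tested. The CLP libraries lay close together and above both HSC libraries. The step from HSC to CLP was 2.93-fold in WT (log2 ratio 1.49) and 5.71-fold in GRK6-/- (log2 ratio 2.37). Between genotypes the log2 ratio was -0.79 in HSC and 0.09 in CLP. Set against each other, Tcf3 was 2.05 times the level of Tcf4 in WT HSC and 8.85 times in GRK6-/- HSC, but 0.473 times in WT CLP and 0.642 times in GRK6-/- CLP. By FPKM, the leading E protein gene therefore changed from Tcf3 in the HSC libraries to Tcf4 in the CLP libraries. That order compares transcripts of 2950 bp (Tcf3) and 7402 bp (Tcf4).

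Id2 (Entrez 15902, mm9 chr12:25778664-25780957, minus strand) gave the largest difference among members with a row in all 4 libraries. It had 12.9 FPKM (labelled WT) and 20.5 (labelled GRK6-/-) among HSC, against 2.77 (labelled WT) and 92.2 (labelled GRK6-/-) among CLP. WT CLP was the lowest and GRK6-/- CLP the highest of the 4, with the HSC libraries between them. The library labelled GRK6-/- CLP was 33.2-fold above that labelled WT CLP (log2 ratio 4.63), and the log2 ratio in HSC was 0.62. CLP against HSC ran in opposite directions, with a log2 ratio of -1.88 in WT and 2.12 in GRK6-/-. The percentile of Id2 among genes with a row moved from the 21.4th in WT CLP to the 91.0th in GRK6-/- CLP. This was the library with the highest B lineage, plasmacytoid dendritic cell and erythroid marker sums. An estimated 15 fragments lay behind the WT CLP value and 324 behind the GRK6-/- CLP value.

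E proteins act at sites of the form CANNTG, which read the same on both strands. Promoters were therefore searched for this motif in RefSeq sequence (GRCm38.p6) over the 250 bases before the annotated start, a window that holds at least 1 CANNTG in 66.2% of 32851 gene starts. Entries matched 8 members, not Ikzf3 and Tcf4. The motif occurred in 1 place each in the windows of Tcf3, Id2, Bcl11a and Tcf7, that of Tcf7 overlapping its own coding transcripts, and the first windows of Ikzf1, Gata3, Notch1 and Satb1 held none. The windows of Tcf3 and Id2 are printed because these genes encode an E protein and its inhibitor and differed past the 2-fold change between genotypes, and that of Bcl11a because it was the steadiest member. Each is written 5′ to 3′ on the strand of the gene, the capitals mark CANNTG, and its first base lies at position -196 relative to the start of Id2, -54 of Tcf3 and -186 of Bcl11a. The intervals are chr12:25096093-25096342 on the minus strand for Id2, chr10:80433636-80433885 on the minus strand for Tcf3 and chr11:24080445-24080694 on the plus strand for Bcl11a.
Id2: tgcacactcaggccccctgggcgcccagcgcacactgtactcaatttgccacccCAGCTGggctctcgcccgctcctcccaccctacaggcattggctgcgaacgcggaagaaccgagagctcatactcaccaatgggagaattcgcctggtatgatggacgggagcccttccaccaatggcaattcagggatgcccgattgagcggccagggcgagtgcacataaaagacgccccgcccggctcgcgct
Tcf3: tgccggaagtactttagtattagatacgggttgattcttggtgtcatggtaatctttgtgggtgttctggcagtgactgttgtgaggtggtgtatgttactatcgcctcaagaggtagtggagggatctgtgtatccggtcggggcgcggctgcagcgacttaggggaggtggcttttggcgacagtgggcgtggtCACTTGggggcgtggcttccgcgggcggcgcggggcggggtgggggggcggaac
Bcl11a: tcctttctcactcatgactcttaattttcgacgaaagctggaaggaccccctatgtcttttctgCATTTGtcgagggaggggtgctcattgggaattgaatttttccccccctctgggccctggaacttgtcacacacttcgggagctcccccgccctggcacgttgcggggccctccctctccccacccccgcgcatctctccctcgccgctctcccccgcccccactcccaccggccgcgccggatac

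Other motifs were rarer in these windows. TGGGAA, the core bound by Ikaros, was found in 21.6% of all windows counting both strands and among the members in Bcl11a alone. CTTTGA, bound by TCF factors, was in 13.8% of windows and AGATAA, bound by GATA factors, in 9.99%, and neither was in the first window of any member. These are matches of letters and not measured binding.

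When the E protein and Id genes were set side by side, the library labelled GRK6-/- CLP stood apart. The summed FPKM of Tcf3, Tcf4 and Tcf12 was 57.5 FPKM (labelled WT) and 88.3 (labelled GRK6-/-) among HSC, against 63.5 (labelled WT) and 91.1 (labelled GRK6-/-) among CLP. The summed FPKM of Id1, Id2 and Id3 was 17.0 FPKM (labelled WT) and 25.5 (labelled GRK6-/-) among HSC, against 15.4 (labelled WT) and 170.1 (labelled GRK6-/-) among CLP. By FPKM, the E protein sum was thus 3.39 to 4.13 times the Id sum in 3 libraries and 0.535 times in GRK6-/- CLP. Of the Id sum Id2 made up 76.2% (labelled WT) and 80.2% (labelled GRK6-/-) among HSC, and 18.0% (labelled WT) and 54.2% (labelled GRK6-/-) among CLP.

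**Figure D2:**
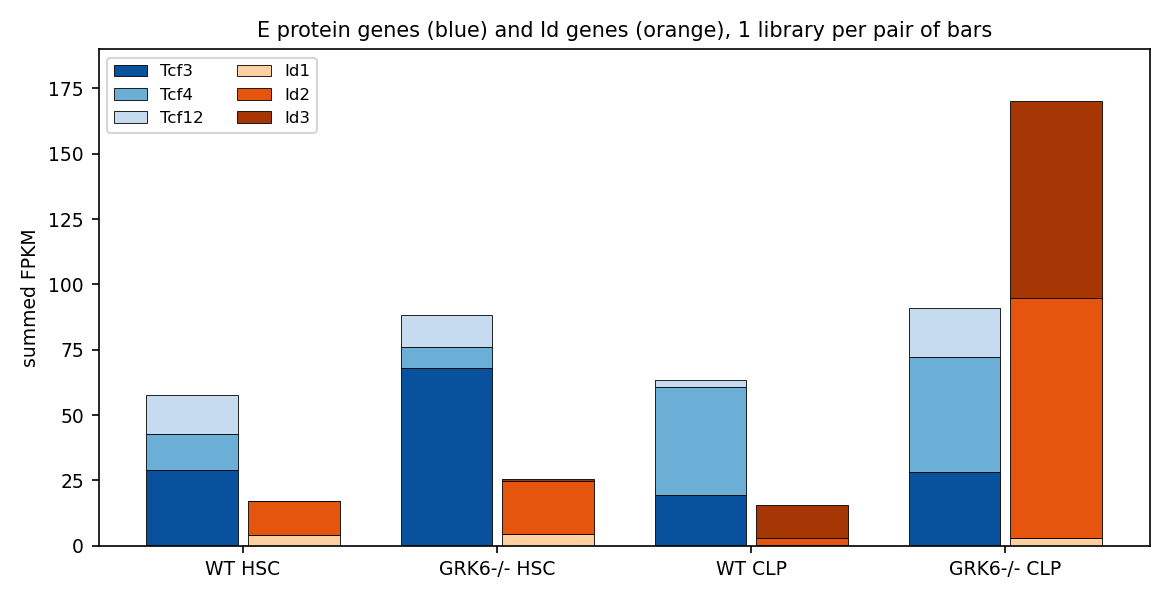
Summed FPKM of the E protein genes (blue, Tcf3, Tcf4 and Tcf12) and of the Id genes (orange, Id1, Id2 and Id3) on the vertical axis, with 1 pair of stacked bars per library and no error bars because each group had 1 library. The Id bar was below the E protein bar in 3 libraries and above it in GRK6-/- CLP, where it reached 170.1 FPKM against 91.1.

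The change of the Id sum was not carried by Id2 alone. Id3, a second E protein inhibitor, had no row (labelled WT) and 0.642 FPKM (labelled GRK6-/-) among HSC, against 12.3 (labelled WT) and 75.2 (labelled GRK6-/-) among CLP. Tcf12, encoding the E protein HEB, had 14.7, 12.4, 2.88 and 18.8 FPKM in the same order, so that WT CLP was lowest for it as for Id2. Over the list of 12 further genes of the E protein and Id network, 11 had a row. In CLP 5 of 11 were higher and 0 lower in GRK6-/- than in WT (median log2 ratio 0.48, beside 0.051 over all genes, of which 26.6% were higher and 23.4% lower), and in HSC 0 of 10 were higher and 2 lower (median -0.28, beside 0.048, with 19.3% and 18.0%). CLP against HSC gave 2 higher and 6 lower in WT (median -1.35, beside -0.079 over all genes, with 21.8% and 24.7%) and 3 higher and 0 lower in GRK6-/- (median 0.24, beside -0.077, with 22.3% and 23.4%). Lyl1, a helix-loop-helix factor of early progenitors, had 67.7 FPKM (labelled WT) and 37.6 (labelled GRK6-/-) among HSC, against 25.9 (labelled WT) and 112.2 (labelled GRK6-/-) among CLP. Lmo2, the bridging protein of such complexes, was lowest in GRK6-/- HSC at 77.2 FPKM, against 413.6 in WT HSC. Cbfa2t2, a corepressor of the ETO family that binds E proteins, was highest in WT HSC at 22.8 FPKM against 3.06 to 6.62 elsewhere.

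Bcl11a was the steadiest of the 6 members with a row in every library. Bcl11a (Entrez 14025, mm9 chr11:23978056-24073558, plus strand) had 70.0 FPKM (labelled WT) and 88.5 (labelled GRK6-/-) among HSC, against 77.2 (labelled WT) and 61.5 (labelled GRK6-/-) among CLP. Its highest and lowest values differed 1.44-fold, and its 4 log2 ratios lay between -0.52 and 0.33. It stood between the 86.1st and the 91.4th percentile of genes with a row in every library. The antisense transcripts Gm12064 and 4930538E20Rik cross its locus. The estimated fragments behind it, 1021 to 1993, were the most of any member in each library.

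Satb1, which encodes a chromatin organizer, was highest in WT CLP. Satb1 (Entrez 20230, mm9 chr17:51875512-51972615, minus strand) had 11.6 FPKM (labelled WT) and 22.1 (labelled GRK6-/-) among HSC, against 44.9 (labelled WT) and 16.5 (labelled GRK6-/-) among CLP. The GRK6-/- CLP value lay between the HSC values, so the populations overlapped. The library labelled WT CLP was 3.88-fold above that labelled WT HSC (log2 ratio 1.87), and that labelled GRK6-/- CLP was 2.72-fold below it (log2 ratio -1.39). Satb1 was the 1 member lower past the 2-fold change in GRK6-/- CLP, beside 23.4% of all genes tested. In HSC the log2 ratio was 0.88 in the other direction.

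The T cell program genes differed from one another. Notch1 (Entrez 18128, mm9 chr2:26313422-26359342, minus strand) had 5.54 FPKM (labelled WT) and 3.73 (labelled GRK6-/-) among HSC, against no row (labelled WT) and 2.71 (labelled GRK6-/-) among CLP. On the log2(FPKM + 1) scale WT CLP was 2.71 below WT HSC and GRK6-/- CLP was 1.89 above WT CLP, values that depend on the constant added. The 3 listed values differed 2.05-fold at most. The HSC values rested on an estimated 133 and 148 fragments and that of GRK6-/- CLP on 71.

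Gata3 (Entrez 14462, mm9 chr2:9778705-9800227, minus strand) had 10.8 FPKM (labelled WT) and 1.63 (labelled GRK6-/-) among HSC, against 0.426 (labelled WT) and no row (labelled GRK6-/-) among CLP. The library labelled WT HSC was above the other 3, by 6.66-fold over that labelled GRK6-/- HSC and by 25.4-fold over that labelled WT CLP. The log2 ratio was -2.17 for GRK6-/- against WT in HSC, the 1 member lower past the 2-fold change there, beside 18.0% of all genes tested. It was -3.05 for CLP against HSC in WT. The estimated fragments were 98 and 20 for the HSC libraries labelled WT and GRK6-/-, and 6 for WT CLP, so the lower values were read from few fragments.

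Tcf7 (Entrez 21414, mm9 chr11:52066106-52095752, minus strand) was listed mainly in 1 library. It had 0.482 FPKM (labelled WT) and 1.33 (labelled GRK6-/-) among HSC, against no row (labelled WT) and 21.6 (labelled GRK6-/-) among CLP. The library labelled GRK6-/- CLP was 16.3-fold above that labelled GRK6-/- HSC (log2 ratio 3.28), and it was 4.50 above WT CLP on the log2(FPKM + 1) scale, a value that depends on the constant added. Of the T cell markers Cd4 had a row in GRK6-/- CLP alone, whereas Cd28 had one in WT CLP alone, at 3.96 FPKM. Cd3e, Cd3d and Cd5 had no row in GRK6-/- CLP, and Lck was level between WT CLP (29.2 FPKM) and GRK6-/- CLP (29.3). The B lineage and erythroid sums were highest in GRK6-/- CLP. The estimated fragments were 152 in GRK6-/- CLP, against 3 in WT HSC and 13 in GRK6-/- HSC. The transcript A630014C17Rik runs antisense across the locus of Tcf7, Gm13256 and 4930412O13Rik across that of Gata3 and 0610009E02Rik and Gm13568 across that of Notch1, and their reads cannot be told apart from those of the members. The housekeeping genes Actb, Gapdh and B2m had rows in all 4 libraries, and no row under another symbol covered the locus of a member in a library that lacked its row.

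Genes of the Notch pathway were read beside Notch1, and 29 of 34 listed genes had a row. Between genotypes 7 of 24 were higher and 6 lower in HSC (median log2 ratio 0.41), where 19.3% of all genes were higher and 18.0% lower, and 8 of 28 were higher and 5 lower in CLP (median 0.19), where the shares of all genes were 26.6% and 23.4%. Between populations 5 of 24 were higher and 8 lower in WT (median -0.14, all genes 21.8% and 24.7%), and 8 of 29 higher and 6 lower in GRK6-/- (median -0.032, all genes 22.3% and 23.4%). These counts lay near those of all genes. The target genes Hes1 and Hes5, repressors induced by Notch signals, were high in WT CLP, the library in which Notch1 itself had no row. Hes1 had no row in either HSC library, 24.0 FPKM in WT CLP and 0.268 in GRK6-/- CLP, and Hes5 had 1.80, 1.13 and 14.8 FPKM in WT HSC, GRK6-/- HSC and WT CLP and no row in GRK6-/- CLP. Other genes of the list did not follow them. Nrarp had 0.0901 FPKM in WT CLP against 7.41 in WT HSC, and Hey1, Heyl and Dtx1 had no row in any library. The receptor gene Notch2 had 5.55 FPKM in WT CLP. Lfng, a sugar transferase that tunes Notch receptors, had 0.162 to 0.410 FPKM in 3 libraries and 14.2 in WT HSC, the library in which Gata3 and Notch1 were also highest. Rfng, of the same enzyme family, was lowest in GRK6-/- CLP at 1.05 FPKM against 11.5 to 20.1. The protease gene Adam17, whose product cuts Notch, had 15.1 FPKM in WT HSC, 2.45 in GRK6-/- CLP and no row in the others. Aph1a, a gamma-secretase subunit, had 10.5 FPKM in GRK6-/- CLP, 1.82 in GRK6-/- HSC and no row in the WT libraries.

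TCF/LEF and beta-catenin genes were read beside Tcf7. Of 14 listed genes 13 had a row. In GRK6-/- against WT, 3 of 12 were higher and 1 lower in HSC (median log2 ratio 0.43, all genes 19.3% higher and 18.0% lower) and 4 of 13 were higher and 1 lower in CLP (median 0.20, all genes 26.6% and 23.4%). In CLP against HSC, 2 of 11 were higher and 0 lower in WT (median 0.33, all genes 21.8% and 24.7%) and 5 of 13 were higher and 1 lower in GRK6-/- (median 0.26, all genes 22.3% and 23.4%). Lef1, the other gene of the TCF/LEF family at work in lymphoid cells, had a row only in GRK6-/- CLP, at 18.6 FPKM. Tcf7l2 had 0.301 FPKM (labelled WT) and 3.21 (labelled GRK6-/-) among HSC, against 9.03 (labelled WT) and 13.8 (labelled GRK6-/-) among CLP. The corepressor gene Tle4 was highest in the library labelled GRK6-/- CLP as well, at 28.2 FPKM against 4.66 to 8.40.

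Counted over the set, fewer members passed the 2-fold change between genotypes in HSC than in the other comparisons, an order that all genes shared, with 37.4% past it there against 45.6% to 49.98%. GRK6-/- against WT in HSC gave 1 of 9 higher, beside 19.3% of all genes, and 1 lower, beside 18.0% (median log2 ratio of the members 0.62, of all genes 0.048). In CLP 3 of 9 were higher, namely Id2, Tcf7 and Notch1, beside 26.6% of all genes tested, and 1 was lower, beside 23.4% (median 0.095, of all genes 0.051). CLP against HSC in WT gave 3 of 9 higher (Ikzf1, Tcf4 and Satb1, beside 21.8% of all genes) and 3 lower (Id2, Gata3 and Notch1, beside 24.7%), with a median of -0.54 against -0.079 over all genes. CLP against HSC in GRK6-/- gave 3 of 9 higher (Tcf4, Id2 and Tcf7, beside 22.3%) and 2 lower (Tcf3 and Gata3, beside 23.4%), with a median of -0.35 against -0.077. Comparisons that share a library share its error.

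**Figure D3:**
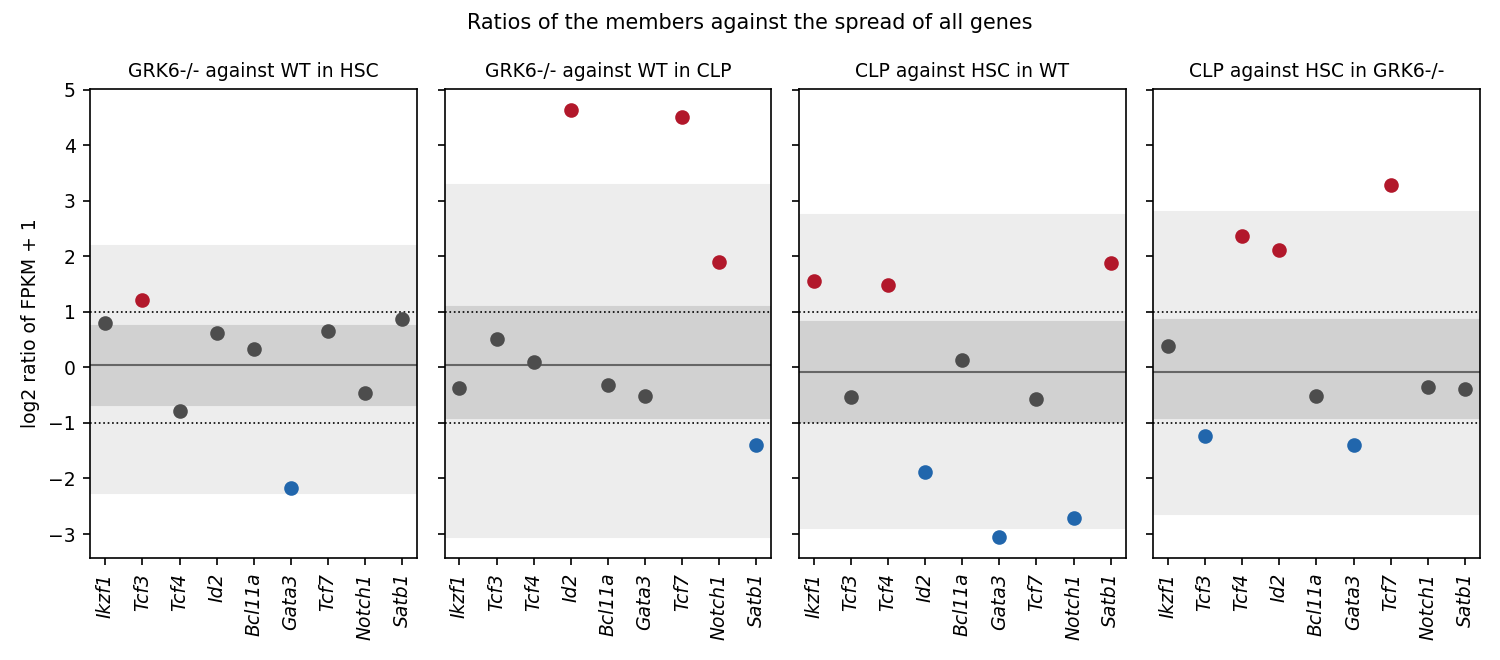
Log2 ratio of FPKM + 1 of the 9 members with a row (points, red higher and blue lower past the 2-fold change marked by dotted lines) in the 4 comparisons, each of 2 libraries, over the range of all genes tested (light band 5th to 95th percentile, dark band 25th to 75th, line median). Id2 at 4.63 and Tcf7 at 4.50 lay above the 95th percentile of 3.27 for GRK6-/- against WT in CLP, Tcf7 at 3.28 above 2.80 for CLP against HSC in GRK6-/-, and Gata3 at -3.05 below the 5th percentile of -2.88 for CLP against HSC in WT.

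The contrasts with 2 libraries on each side were tested with limma on log2(FPKM + 1), with the other factor as a covariate and 1 residual degree of freedom. The residual is the population-by-genotype difference and not a spread between replicates. Any genotype effect that differs between populations, as for Id2, therefore counts as error in the SE and p. No gene passed, at 0 of 9709 genes (0% of those tested) for the population effect and 0 of 9709 (0%) for the genotype effect after Benjamini-Hochberg adjustment. At an unadjusted p under 0.05 there were 633 genes for population and 503 for genotype, and the lowest adjusted p was 0.279 and 0.437. Among the members, CLP minus HSC was 1.93 ± 0.79 for Tcf4 (log2 difference ± SE, limma adjusted p = 0.786), -2.22 ± 0.85 for Gata3 (limma adjusted p = 0.757), 0.97 ± 0.81 for Ikzf1 (limma adjusted p = 0.917) and -0.89 ± 0.79 for Tcf3 (limma adjusted p = 0.923). GRK6-/- minus WT was 2.63 ± 1.16 for Id2 and 2.58 ± 1.14 for Tcf7 (limma adjusted p = 0.966 for both), -1.34 ± 0.85 for Gata3 (limma adjusted p = 0.983) and 0.01 ± 0.78 for Bcl11a (limma adjusted p = 0.9998). Leaving 1 library out, without the population term, took the genotype value of Gata3 from -2.87 without WT CLP to 0.18 without WT HSC. That of Tcf7 went from 0.94 without GRK6-/- CLP to 4.22 without GRK6-/- HSC, and that of Id2 from 1.57 to 3.68 without the same libraries. Such a value also holds part of the difference between populations, so it does not isolate the weight of 1 library. Over the 9 members with a row the limma adjusted p ran from 0.757 to 0.998 for population and from 0.966 to 0.9998 for genotype. A p above the threshold in so few libraries does not show that the levels were alike.

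Among other lymphoid regulators 20 of 23 listed genes had a row, and Pax5, Irf4 and Eomes had none. CLP against HSC gave 6 of 17 higher and 3 lower in WT (median log2 ratio 0.53, all genes 21.8% higher and 24.7% lower) and 10 of 18 higher and 1 lower in GRK6-/- (median 1.69, all genes 22.3% and 23.4%). GRK6-/- against WT gave 1 of 16 higher and 4 lower in HSC (median -0.14, all genes 19.3% and 18.0%) and 8 of 16 higher and 1 lower in CLP (median 0.89, all genes 26.6% and 23.4%). Ebf1, a founding factor of the B cell program and a partner of Tcf3, had no row in the HSC libraries, 24.99 FPKM in WT CLP and 82.0 in GRK6-/- CLP. The coactivator gene Pou2af1 followed the same order, with no row in HSC, 8.502 FPKM in WT CLP and 48.4 in GRK6-/- CLP. Spib, an Ets factor of B and plasmacytoid dendritic cells, had no row in HSC, 15.8 FPKM in WT CLP and 40.2 in GRK6-/- CLP. Irf8, used by dendritic and B cells, had 1.12 FPKM (labelled WT) and 41.2 (labelled GRK6-/-) among HSC, against 152.2 (labelled WT) and 190.3 (labelled GRK6-/-) among CLP. Nfil3, which acts upstream of Id2 in innate lymphoid cells, ran the other way, with 31.0, 8.46 and 0.119 FPKM in WT HSC, GRK6-/- HSC and WT CLP and no row in GRK6-/- CLP. Tox, an early innate lymphoid and T cell factor, had 27.3 FPKM in GRK6-/- CLP, 0.277 in GRK6-/- HSC and no row in the WT libraries.

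**Figure D4:**
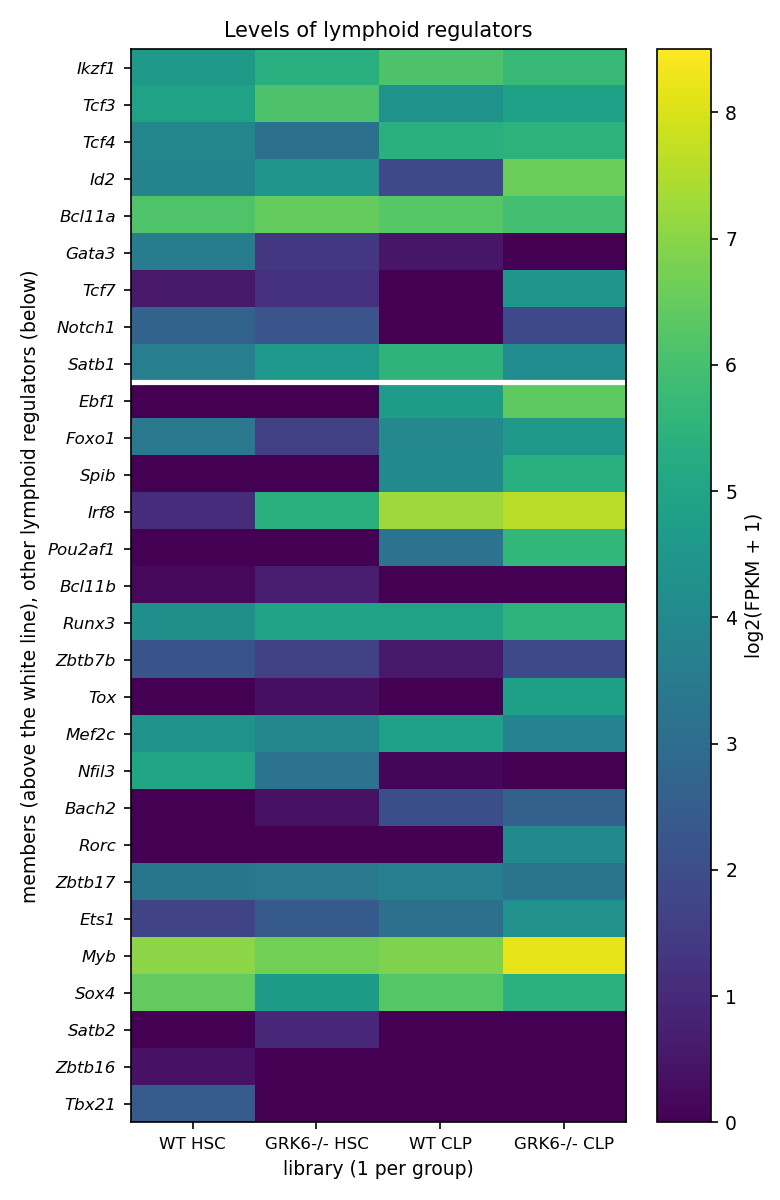
Levels of the 9 members with a row (above the white line) and of 20 other lymphoid regulators (below it) as log2(FPKM + 1) in colour, with 1 column per library and 0 where a library had no row. Ebf1, Spib and Pou2af1 were at 0 in both HSC libraries and present in both CLP libraries, while Tox was at 27.3 FPKM in GRK6-/- CLP and at most 0.277 elsewhere.

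Genes downstream of these factors were mostly higher in CLP under both genotype labels. Of 24 listed genes 23 had a row. In CLP against HSC, 14 of 22 were higher and 2 lower in WT (median log2 ratio 2.35, beside -0.079 over all genes, of which 21.8% were higher and 24.7% lower) and 17 of 23 were higher and 3 lower in GRK6-/- (median 3.15, beside -0.077, with 22.3% and 23.4%). Il7r, for which the CLP gate selects, was counted among the higher genes under both labels, so its direction was set by the sort. Cd3d and Cd3g were lower under both labels. In GRK6-/- against WT, 3 of 16 were higher and 2 lower in HSC (median 0.18, all genes 19.3% and 18.0%), and 9 of 21 were higher and 4 lower in CLP (median 0.16, all genes 26.6% and 23.4%). Ly6d, a marker of B-biased CLP, had no row in HSC, 1438 FPKM in WT CLP and 1051 in GRK6-/- CLP. Several genes of the surrogate light chain and the B cell receptor were higher in GRK6-/- CLP than in WT CLP, as for Igll1 (226.5 against 2.20 FPKM), Vpreb1 (246.0 against 16.4), Vpreb3 (593.5 against 124.0) and Cd79a (159.9 against 32.1). Vpreb2 went the other way, at 4.75 FPKM in GRK6-/- CLP against 70.6 in WT CLP, and because Vpreb1 and Vpreb2 are near-identical copies that can share reads, the values of both are uncertain. The adaptor gene Blnk was level between them, at 167.4 FPKM in WT CLP and 171.5 in GRK6-/- CLP.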

How the data were processed

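Cells were sorted singly, poly(dT)-primed cDNA was amplified by 20 and then 10 cycles of PCR, and the cDNA was pooled into 1 library per population and genotype. The authors mapped reads to mm9 with tools of the Tuxedo suite (TopHat 1.4.0, per the submitters' processing notes) and deposited FPKM values. Rows were given only for genes above 0. Why a gene had no row is not stated, so a missing row may not be true absence. The version of the quantifier and its annotation are not given in the sources used here. Rows of 1 symbol were summed, a missing row was taken as 0, and 333 gene and joint names that shared a row with another gene (54 to 74 such rows per library) were left out.

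Ratios were log2 of FPKM + 1. The threshold of 2-fold follows the study's own threshold on size. Main effects were fitted with limma 3.58.1 in R 4.3.3 over genes with FPKM of at least 1 in at least 2 libraries, and adjusted by Benjamini-Hochberg over all of them. The limma script was checked on simulated data without a population-by-genotype difference. That checks the code and not how the fit behaves on these libraries. Fragments were estimated from the steps of low FPKM values and from the longest coding transcript of each gene (GENCODE, mm9). Such estimates can be too low, amplified fragments are not independent molecules, and no interval is given. Promoters were RefSeq windows, read without the mm9 coordinates.

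The members, lists and markers were chosen with earlier results of these data known. All members are named. In each other list the genes named had an FPKM of at least 10 in any library and an absolute log2 ratio of at least 2 in any of the 4 comparisons, up to 6 by the largest ratio. Genes of the sort, Grk6 and the marker lists served as checks. The few named from them, Vpreb2, Nrarp, Notch2 and the genes without a row were chosen after their values were seen. The result of 1 marker is not reported here, and the stem cell markers are given without it. Alternatives were the pseudocount, rescaling, the highest row per symbol, filters on low FPKM, a stricter threshold, quantile normalization, the model without the other factor, and leaving out each library. Python 3.11.15, numpy 2.4.6, pandas 2.3.3 and matplotlib 3.10.9 were used.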

Additional observations from a re-analysis of the deposited data

Results flagged for a closer look

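Some members went in opposite directions in both groups of a contrast with at least 1 of the 2 ratios past the 2-fold change, and with 1 library per group the difference was not tested in any of them. The log2 ratio of GRK6-/- against WT for Notch1 was -0.4672 in HSC and 1.89 in CLP, and for Satb1 it was 0.8778 in HSC and -1.389 in CLP. These are 2 of 9 members compared, and 32.4% of 10398 genes compared in both populations met the same 2 conditions. Ikzf1, Tcf4 and Bcl11a also differed in direction, with both ratios within the 2-fold change. The log2 ratio of CLP against HSC for Id2 was -1.884 in WT and 2.117 in GRK6-/-, for Tcf7 it was -0.5677 in WT and 3.281 in GRK6-/-, and for Satb1 it was 1.87 in WT and -0.3968 in GRK6-/-. These are 3 of 9 members, beside 32.1% of 10493 genes that met both conditions, and Bcl11a differed in direction within the 2-fold change. The 2 contrasts use the same 4 libraries, so a member may be counted in both, as Satb1 was. The values for Notch1 and Tcf7 include a library without a row and depend on the constant added.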

How the results depend on the processing

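The 17 member ratios past the 2-fold change kept their direction and stayed past it in all 82 values under 5 other settings. These were the other pseudocount, rescaling, the highest row per symbol and both filters on low FPKM. That outcome was largely fixed in advance and is no measure of robustness. The filters and the highest row changed no member ratio. A smaller pseudocount can only enlarge an absolute ratio, and rescaling moved ratios by at most 0.035. Of 88 values for the other ratios 3 passed the 2-fold change, all with a pseudocount of 0.1. They were Tcf7 in GRK6-/- against WT HSC (1.296), Gata3 in GRK6-/- against WT CLP (-2.40) and Tcf7 in CLP against HSC in WT (-2.54). An absolute log2 ratio of at least 2 left 1 member in HSC and 2 in CLP between genotypes, and 2 in WT and 3 in GRK6-/- between populations. Among members with FPKM of at least 10 in a library, a filter added after the data were seen, 2 of 7, 3 of 7, 5 of 7 and 4 of 7 passed, beside 38.4%, 50.7%, 47.6% and 47.1% of genes. limma called 0 genes under every alternative run, with a lowest adjusted p of 0.155 to 0.999 for population and 0.200 to 0.999 for genotype. Leaving out a library was run without the other factor, since no degree of freedom is left with it. Each difference from such a fit therefore also holds part of the difference along the other factor. The uncalled population difference of Id2 then ran from -2.20 without GRK6-/- CLP to 2.43 without WT CLP, and that of Tcf7 from -0.89 to 3.61 without the same libraries. With a pseudocount of 0.1 that of Id2 was -0.0081. The uncalled genotype differences of Id2, Tcf7 and Tcf3 stayed above 0 without each library, and those of the other 6 members changed sign. No paired analysis was possible because the labels carry no replicate numbers, other than the limma fit itself, whose covariate compares libraries within a population or a genotype. Depth limits Gata3, Tcf7 and Notch1, whose lower values rest on few or no fragments.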

Other observations

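The recombinase genes Rag1 and Rag2, which start the joining of antigen receptor genes, were highest in WT CLP, at 23.0 and 94.5 FPKM, whereas GRK6-/- CLP had 2.47 FPKM of Rag1 and no row for Rag2. Ccr9, a homing receptor of thymus-seeding progenitors and plasmacytoid dendritic cells, had 79.1 FPKM in GRK6-/- CLP and at most 0.104 in the other libraries. These genes were chosen after their values were seen.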
